A study of Mus musculus with 4 samples.

Results

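Matrix metalloproteinases (MMPs), their tissue inhibitors (TIMPs) and the sheddase Adam10 were examined in newborn skin with and without loricrin, a major building block of the cornified envelope of the epidermis. The 10 genes were Mmp2, Mmp3, Mmp9, Mmp11, Mmp13, Mmp14, Timp1, Timp2, Timp3 and Adam10, of 13674 genes named on the arrays in all, and a probe set was taken where the platform annotation gave exactly 1 of these symbols. They had 16 probe sets on the first of 2 array types and 0 on the second. The 2 groups were loricrin knockout and wildtype mice of strain FVB/N, both at postnatal day 0, and total RNA of whole skin was labelled with biotin and hybridised. Each group had 2 arrays, 1 on each array type, so every value of these 10 genes came from 1 knockout and 1 wildtype array. It has no replicate error, no test was possible, and whether the groups overlap could not be asked. The labels do not state how the knockout allele was made, which sex the animals had, whether animals were pooled, or whether different animals supplied the arrays.

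MMPs are zinc-dependent proteases that cut collagens, laminins and other proteins of the extracellular matrix. Most are secreted as inactive proenzymes, while Mmp14 sits in the cell membrane, and TIMPs bind the active site and block it. In skin, MMPs act in matrix turnover, wound repair and the migration of keratinocytes, and much of their control is at transcription. Adam10 belongs to a related family of membrane-bound metalloproteinases and releases the outer parts of Notch receptors, cadherins and other surface proteins.

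The promoters of these genes differ in sequence, and 6 are shown because the genes they belong to fell into separate signal classes on the arrays. Each line gives the 150 bases before the RefSeq transcription start (GRCm38.p6), 5′ to 3′ on the gene's own strand. Capitals mark 3 motifs searched on both strands, which are TGANTCA (the site of AP-1, the Fos and Jun dimer), TATAAA (the TATA box) and GGGCGG (the GC box). Mmp13 and Mmp3, at chr9:7272364-7272513 and chr9:7445672-7445821, are secreted enzymes whose probe sets stayed below the floor explained further on. The other 4, Mmp14 at chr14:54431448-54431597, Timp1 at chrX:20870016-20870165, Timp3 at chr10:86300262-86300411 and Adam10 at chr9:70678832-70678981, had a probe set above it in both arrays. All 6 lie on the plus strand.
Mmp13: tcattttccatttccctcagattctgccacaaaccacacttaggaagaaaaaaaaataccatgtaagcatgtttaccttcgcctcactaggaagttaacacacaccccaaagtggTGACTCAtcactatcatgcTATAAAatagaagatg
Mmp3: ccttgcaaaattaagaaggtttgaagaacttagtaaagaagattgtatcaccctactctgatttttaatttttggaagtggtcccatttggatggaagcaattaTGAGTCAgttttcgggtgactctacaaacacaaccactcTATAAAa
Mmp14: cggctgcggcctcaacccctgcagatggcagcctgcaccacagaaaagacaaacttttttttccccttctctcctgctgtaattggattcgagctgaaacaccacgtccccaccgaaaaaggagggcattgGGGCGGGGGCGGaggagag
Timp1: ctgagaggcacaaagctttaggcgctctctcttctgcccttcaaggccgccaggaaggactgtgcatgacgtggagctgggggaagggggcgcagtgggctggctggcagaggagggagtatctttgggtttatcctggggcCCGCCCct
Timp3: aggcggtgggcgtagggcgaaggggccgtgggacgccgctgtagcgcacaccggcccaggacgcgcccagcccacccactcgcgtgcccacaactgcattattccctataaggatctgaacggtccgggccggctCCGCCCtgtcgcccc
Adam10: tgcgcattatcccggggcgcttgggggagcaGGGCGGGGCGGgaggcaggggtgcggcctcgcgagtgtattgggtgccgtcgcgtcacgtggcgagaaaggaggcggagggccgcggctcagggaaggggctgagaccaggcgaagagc

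Of the 10 genes, 8 had a promoter in the RefSeq table, and Mmp2 and Mmp9 are only named. The AP-1 motif was found in 2 of the 8, Mmp3 (46 to 40 bases before the start) and Mmp13 (35 to 29 bases before it), and 4.24% of all 32851 promoter windows of this length hold it. The same 2 genes hold TATAAA, 7 to 2 bases before the start in Mmp3 and 16 to 11 bases before it in Mmp13, against 7.57% of all windows. The GC box was found in the other 6, against 28.6% of all windows. Mmp14 has 2 copies next to each other, and the 2 copies of Adam10 share a base. GC content was 35.3% in Mmp3 and 38.7% in Mmp13, and 57.3% in Mmp14, 62.7% in Timp1, 70.7% in Timp3 and 72.0% in Adam10, where the median window has 54.0%. Mmp11, with 68.0% GC and 2 GC boxes, stayed below the floor as Mmp3 and Mmp13 did. Timp2, with 73.3% GC and 1 GC box, had no probe set above the floor in both arrays. Neither of these promoters, of Mmp11 and Timp2, is printed above. The printed promoters were picked by the signals of their genes, and a signal below the floor does not show that a transcript was missing. A relation between promoter sequence and signal was therefore not tested. A motif match is a description of the sequence and is no sign that a factor binds there.

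The values are MAS5 signals on a linear scale, 1 per probe set and array. A floor was set at the mean of the 40th percentiles of the 2 arrays, which was 77.6 for the first type and 133 for the second, and signals under it were raised to it before ratios were taken. Where 1 of the 2 signals was raised in this way the fold is a bound, written "at least", and no ratio is given where both signals lie below it. A signal below the floor does not show that a transcript was missing: the basal keratins Krt5 and Krt14 read 6.70 and 32.0 in knockout skin, against 9.43 and 8.83 in wildtype skin. Signals of different probe sets cannot be set against each other as levels, and in whole skin fewer cells of a type and less RNA per cell cannot be told apart.

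Loricrin was read as the check of genotype. Its brighter probe set had a signal of 2013 in knockout skin against 41225 in wildtype skin, 20.5-fold lower in knockout. It has none on the second type. Both knockout arrays also carried a female and both wildtype arrays a male pattern of sex-linked transcripts, so sex and genotype cannot be told apart in any value given here, that of X-linked Timp1 included. The silencing RNA Xist read 857 in the knockout array and 24.75 in the wildtype array of the first type, and the Y-linked Kdm5d 12.2 in knockout and 976 in wildtype on the other. Suprabasal keratinocyte markers were high in both groups, as in whole skin: Krt1, a keratin of differentiating epidermis, read 18713 in knockout and 26637 in wildtype.

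Of the 16 probe sets, 5 lay above the floor in both arrays, 2 in 1 array and 9 in neither. Over all 12422 probe sets of the first type, 56.6% lay above the floor in both arrays and 36.4% in neither. With the floor, none of the 16 was 2-fold higher or lower in knockout, the size used here for a call. Of all probe sets, 2.09% passed it in either direction. For the 2 bounds and the 9 without a ratio, a larger change is not excluded. Among the 5 above the floor in both arrays, 2 read higher in knockout and 3 lower, and none lay outside the central 95% of all such probe sets (log2 ratios of -0.79 to 0.75).

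**Figure D1:**
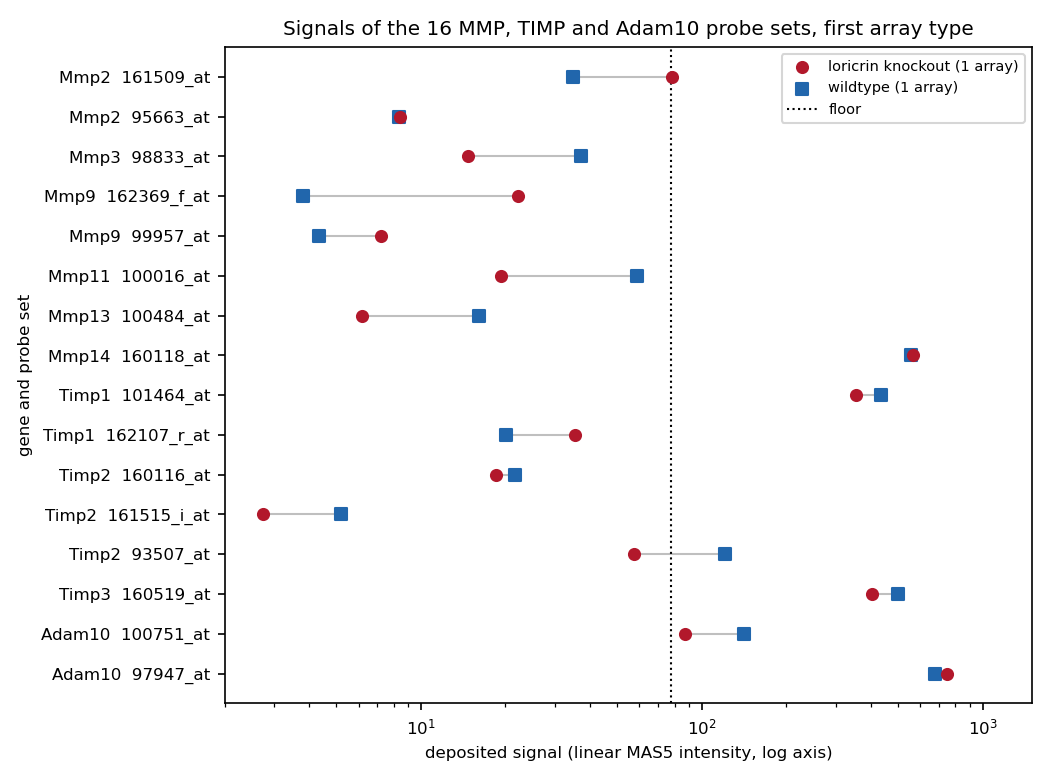
Deposited signal (linear MAS5 intensity on a log axis) of each of the 16 probe sets in the loricrin knockout array (red circles) and the wildtype array (blue squares) of the first type, with the floor of 77.6 as a dotted line. Only probe sets of Mmp14, Timp1, Timp3 and Adam10 lie right of the floor in both arrays, and 9 lie left of it in both.

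Mmp14, the membrane-type enzyme that activates Mmp2 and cuts fibrillar collagen, read 567 in knockout skin and 556 in wildtype skin on its 1 probe set. The 2 arrays were nearly level, with a log2 ratio of 0.03. The gelatinase Mmp2, which takes on denatured and basement membrane collagens, had 2 probe sets. The 161509_at probe set read 78.0 in knockout and 34.8 in wildtype, so that the knockout signal stood just above the floor and the wildtype signal below it. The bound this leaves is at least 1.01-fold higher in knockout. Mmp2 probe set 95663_at read 8.45 in knockout and 8.33 in wildtype, far below the floor in both arrays.

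The other secreted enzymes had no signal above the floor in either array. The gelatinase Mmp9 read 22.1 in knockout and 3.81 in wildtype on probe set 162369_f_at, and 7.23 in knockout and 4.35 in wildtype on 99957_at. Stromelysin-1 (Mmp3) read 14.7 in knockout and 37.1 in wildtype. Collagenase-3 (Mmp13), which cuts fibrillar collagens, read 6.16 in knockout and 16.1 in wildtype. Stromelysin-3 (Mmp11), known from stromal cells during tissue remodelling, read 19.3 in knockout and 58.8 in wildtype. Mmp9 thus read higher in the knockout array and Mmp3, Mmp11 and Mmp13 read lower there, all within the range of signals that the floor sets aside. Over the 9 probe sets below the floor in both arrays, signals spanned 2.74 to 35.5 in knockout and 3.81 to 58.8 in wildtype, with 4 higher in the knockout array and 5 lower.

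Mmp3 and Mmp13 belong to a cluster of 10 MMP genes that are neighbours on mouse chromosome 9. In RefSeq order these are Mmp13, Mmp12, Mmp1b, Mmp3, Mmp1a, Mmp10, Mmp8, Mmp27, Mmp20 and Mmp7. Of the 10, 7 had a probe set on either array type. None of their 8 probe sets rose above the floor in either genotype. The highest signal in the cluster was 47.3 among the first type's probe sets and 32.15 among those of the second.

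The inhibitors Timp1 and Timp3 each had 1 probe set above the floor in both arrays. Timp1, a secreted inhibitor of most MMPs, read 355 in knockout and 433 in wildtype on 101464_at. The knockout signal was the lower one, with a log2 ratio of -0.29, or 1.22-fold. Its other probe set, 162107_r_at, read 35.5 in knockout and 20.01 in wildtype, below the floor. Timp3, which binds to the matrix and also inhibits ADAM proteases, read 403 in knockout and 499 in wildtype, again lower in knockout, with a log2 ratio of -0.31, or 1.24-fold. Ratios of this size were common, since the quartiles of all probe sets above the floor in both arrays were -0.23 and 0.25. Timp1 is X-linked and lies inside the span of Syn1, and Timp3 inside that of Syn3, so that host and inhibitor overlap in the genome. Whether these probe sets read only the inhibitor was not tested.

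Timp2, the inhibitor that also takes part with Mmp14 in activating Mmp2, had 3 probe sets. The brightest, 93507_at, read 57.3 in knockout and 120.6 in wildtype. The knockout signal lay below the floor and the wildtype signal above it, which bounds Timp2 at least 1.55-fold lower in knockout. The other Timp2 probe sets read 18.4 and 2.74 in knockout and 21.7 and 5.19 in wildtype, on 160116_at and 161515_i_at in that order. These were below the floor in both arrays.

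Adam10 alone among the 10 genes had 2 probe sets above the floor in both arrays, and their ratios disagreed. On 97947_at it read 750.05 in knockout and 675.7 in wildtype, which gives a log2 ratio of 0.15. On 100751_at it read 87.0 in knockout and 141 in wildtype. That is a log2 ratio of -0.70, the knockout being 1.63-fold lower, with the knockout signal close to the floor. The brighter probe set was thus slightly higher in the knockout array and the dimmer one lower, and they differed by 0.85 on the log2 scale. Of the 838 genes with 2 or more probe sets above the floor in both arrays, 8.83% differed between their 2 brightest by at least as much, and the median difference was 0.30. Both ratios had the same sign in 58.9% of the 838. No probe set of the 10 genes reached 2-fold, and the nearest to it were this dimmer Adam10 probe set and Timp2 probe set 93507_at.

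**Figure D2:**
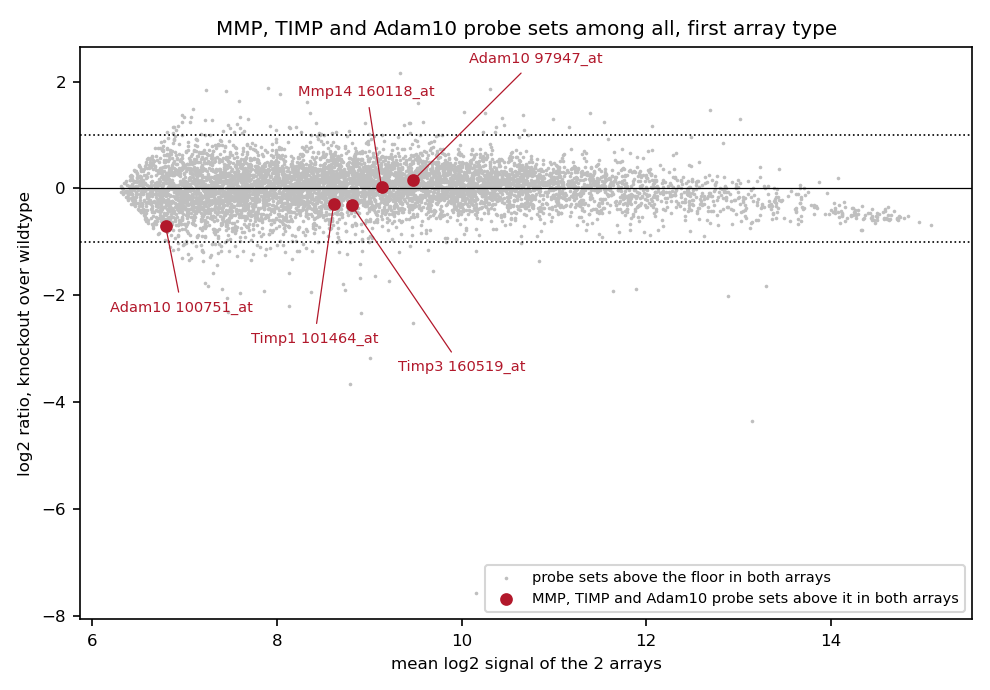
Log2 ratio of knockout over wildtype against the mean log2 signal of the 2 arrays for every probe set of the first type above the floor in both arrays (grey) and for the 5 such probe sets of Mmp14, Timp1, Timp3 and Adam10 (red), with dotted lines at 2-fold. All 5 lie between the dotted lines, from -0.70 to 0.15.

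These directions depend on how the 2 arrays are set level. With 9 bacterial spike-in probe sets used for scaling, the median log2 ratio of probe sets above the floor in both arrays was 0.69, against 0.016 as reported. Timp1 and Timp3 then read higher in knockout, at log2 ratios of 0.40 and 0.38, and still lay below that shifted median. Mmp14 stood at 0.72 and Adam10 at 0.84 and -0.01, and none of the 16 probe sets passed 2-fold. Under the other scalings and floors the signs of Timp1, Timp3 and the brighter Adam10 probe set held. So did that of the dimmer Adam10 probe set, except with the floor at the 60th percentile, where both its signals lay below it. Mmp14 lay between -0.04 and 0.03.

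**Figure D3:**
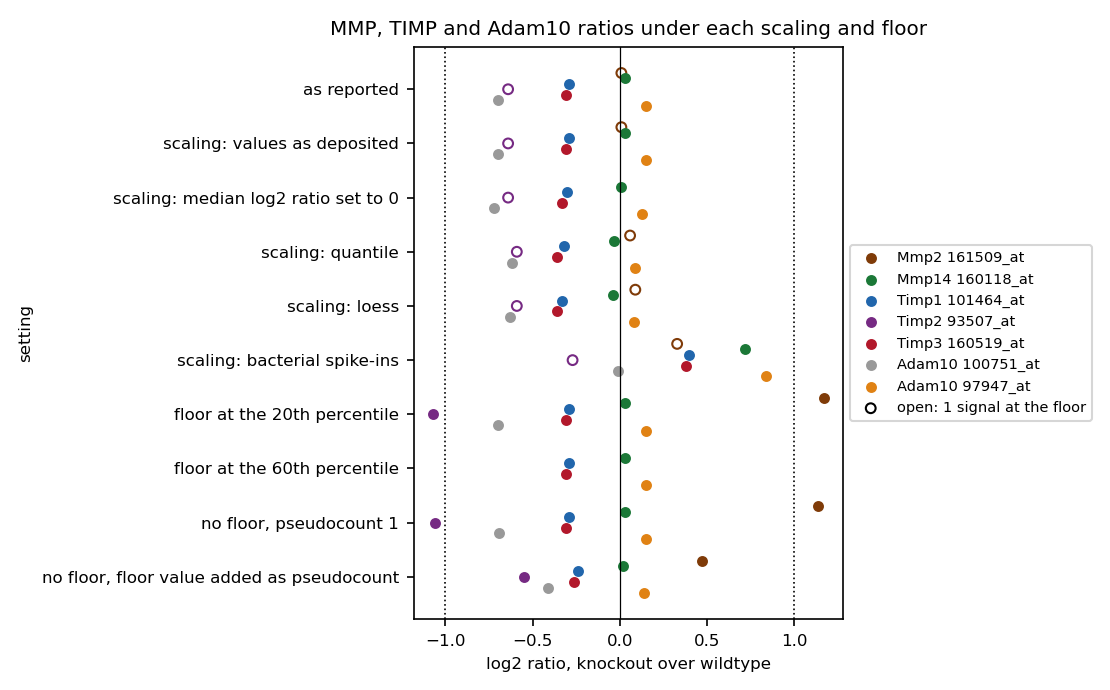
Log2 ratio of knockout over wildtype for the 7 probe sets above the floor in at least 1 array (colours), under each scaling and each treatment of low signals (rows), with open circles for bounds, dotted lines at 2-fold and no point where both signals lie below the floor. Timp1 and Timp3 lie left of 0 in every row except the spike-in scaling, and Mmp2 and Timp2 cross 2-fold only with the floor at the 20th percentile or with a pseudocount of 1.

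Genes around these proteases were described in 6 lists, each gene by its brightest probe set. The share of all named genes that passed 2-fold was 0.836% in the higher and 1.38% in the lower direction among the first type's genes, and 1.67% higher and 2.12% lower among those of the second. Median log2 ratios over named genes whose mean signal lay above the floor were 0.023 and 0.011 on the 2 types. Of 98 list genes on the first type, 5 were higher and 12 lower in knockout. Of 35 on the second type, 1 was higher and 3 were lower.

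**Figure D4:**
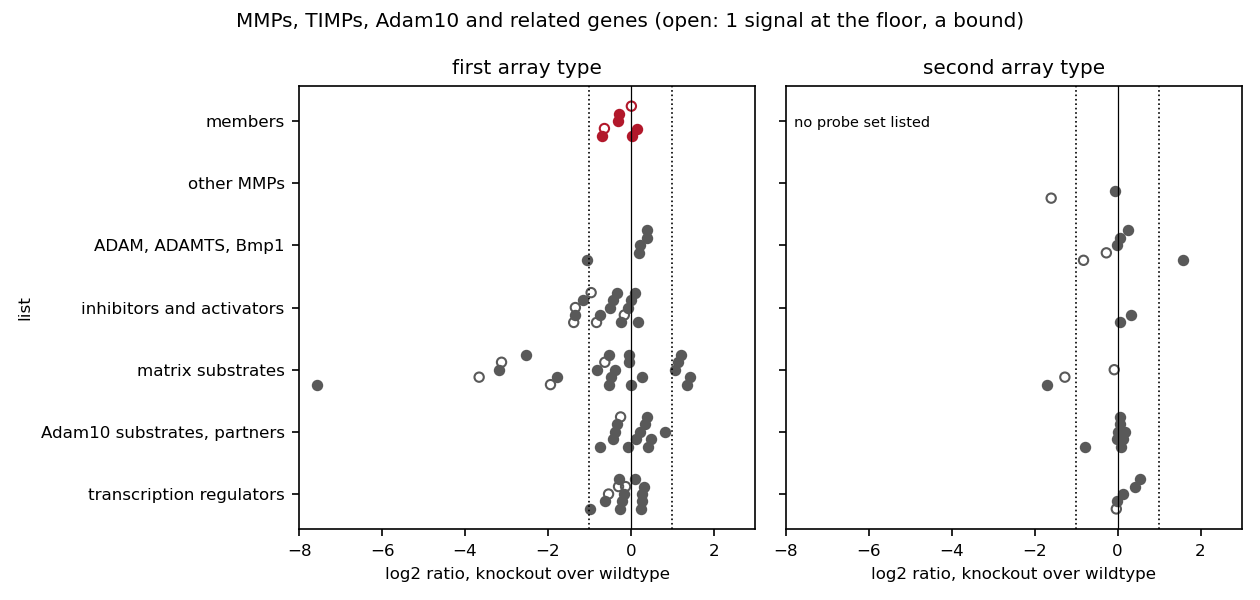
Log2 ratio of knockout over wildtype for the MMPs, TIMPs and Adam10 (red, labelled members) and for the genes of the 6 related lists (grey), on the first (left) and second (right) array type, with open circles for bounds and dotted lines at 2-fold. The calls beyond 2-fold lie mostly among the matrix substrates (left panel, 5 higher and 7 lower) and the inhibitors and activators (4 lower).

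The list of MMPs beside the 10 genes includes some of the chromosome 9 cluster but leaves out Mmp27, which is counted with that cluster above. The first type measured 7 of the list, none with a signal above the floor. On the second type 1 of the 4 listed and measured was lower. Mmp28, also called epilysin and made by keratinocytes, read 72.2 in knockout, below the floor, and 403 in wildtype, at least 3.03-fold lower in knockout. Of the ADAM, ADAMTS and related proteases, 1 of 13 was lower on the first type and 1 of 9 higher on the second. Adam19, a membrane-bound relative of Adam10, read 185 in knockout and 386 in wildtype, 2.08-fold lower. The aggrecan-cutting enzyme Adamts5 read 701 in knockout and 234 in wildtype on its brightest probe set, 3.0-fold higher, but 208 in knockout and 316 in wildtype on another.

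Of 20 genes for other inhibitors, activators and binding partners of MMPs measured on the first type, 4 were lower and none higher, with a median of -0.34 over the 13 whose mean signal lay above the floor. Reck, a membrane-anchored inhibitor of MMPs, read 22.6 in knockout, below the floor, and 202 in wildtype, at least 2.60-fold lower. The secreted proteoglycan Spock2 read 83.1 in knockout and 211 in wildtype, 2.55-fold lower. Pcolce, which enhances the cutting of procollagen by Bmp1, read 98.0 in knockout and 218 in wildtype, 2.22-fold lower. The secreted serpin Serpinf1 was at least 2.54-fold lower, at 9.82 in knockout and 197 in wildtype, while a dimmer Serpinf1 probe set read 87.5 in knockout and 54.1 in wildtype. Under spike-in scaling the list median was 0.30 and 1 gene was called lower. On the second type none of 3 passed 2-fold.

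The substrates moved in both directions. Of 23 matrix genes on the first type, 7 were lower and 5 higher in knockout. The median was -0.47 over the 21 whose mean signal lay above the floor. The fibrillar collagen Col1a1, a substrate of Mmp13 and Mmp14, read 172 in knockout and 1545 in wildtype, 9.0-fold lower. Col3a1 was at least 12.6-fold lower and elastin (Eln) at least 8.71-fold lower, while the small proteoglycan Bgn was 5.72-fold lower (1.86-fold on its dimmer probe set) and its relative Lum at least 3.84-fold lower. Fbln1 was called lower from probe set 161628_r_at alone, at 82.5 in knockout and 15721 in wildtype, and its 3 other probe sets lay between -0.22 and 0.15. The 5 higher genes, named after their values were seen, were Col17a1, Hspg2, Lamb3, Lama5 and Col7a1, at 2.07-fold to 2.68-fold. The basement membrane collagens Col4a1 and Col4a2 were at log2 ratios of -0.04 and -0.38, and the basement membrane linker Nid1 lay below the floor in both arrays. On the second type 2 of 4 were lower, the elastic fibre protein Fbln5 by 3.24-fold and Col14a1 by at least 2.41-fold. The same counts of 5 and 7 were found with spike-in scaling, and the list median was then 0.22.

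Genes that Adam10 cuts or that guide it did not pass 2-fold, with 0 of 17 on the first type and 0 of 9 on the second. The amyloid precursor App read 7951 in knockout against 6858 in wildtype (log2 ratio 0.21), and its relative Aplp2 0.49. On the second type Tspan5, a tetraspanin that carries Adam10, stood at 0.14, and Cd44 at 0.07. On the first type they stood at -0.08 and -0.34. The factors and cytokines that act on MMP transcription also gave 0 of 19 and 0 of 7. Fos, a subunit of AP-1, read 7749.9 in knockout against 8713 in wildtype (log2 ratio -0.17), and its partner Jund -0.63. Fosl2 and Ets2 on the second type were at 0.55 and 0.43, and on the first at -0.13 (a bound) and 0.26.

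Only genes on both array types could be tested, and none of the 10 was. With limma over the 4 arrays and array type as a block, 0 of 1250 genes passed an adjusted p of 0.05, or 0%, with 103 at an unadjusted p under 0.05. Of these 1250, 11 belonged to the related lists. The lowest p among them was that of Col14a1, with a mean log2 ratio of -0.95 (SE 0.25), lower in knockout on 2 of 2 types, and a limma adjusted p of 0.586. Its knockout signal lay below the floor on both types, so this mean and SE come from bounds. The lowest adjusted p in the lists was 0.0227 under spike-in scaling, which shifted most genes towards knockout, and 0.104 to 1 under the others. The array types carry different probe sets, so with the block such a p rests on how far a gene's ratios differ between the 2 types. That spread includes differences between probe sets. As the labels do not name separate animals, it may be technical throughout.

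Some markers of the cells that make these proteins moved in the knockout array, and some of these are matrix genes already counted above. Of 10 dermal fibroblast markers, 5 were lower and none higher. The 5 include Col1a1, Col3a1 and Lum, with the same values as among the lower matrix genes. The median was -2.1 over the 8 whose mean signal lay above the floor. The summed signal of the 10 was 4192 in knockout and 7535 in wildtype. The fibroblast receptor Pdgfra was at least 5.17-fold lower on its brightest probe set, but another of its probe sets read 200.3 in knockout and 139 in wildtype, 1.44-fold higher. The dermal factor Twist2 was 4.96-fold lower, while Dcn read 2462 in knockout and 2556 in wildtype. Col1a2, like Dcn also counted among the matrix genes, read 1082 in knockout and 1076 in wildtype on its brightest probe set. Another of its probe sets read 125 in knockout and 1580 in wildtype, 12.7-fold lower. Thy1 stood at a log2 ratio of 0.18. Of 7 basal keratinocyte markers, 3 were higher, which were Trp63, Itga6 and Col17a1, and the summed signal was 4745 in knockout and 2279 in wildtype. Col17a1 was already counted among the higher matrix genes. Itgb4 stood at a log2 ratio of 0.04, and Krt15 on the second type at 0.25. None of the suprabasal markers passed 2-fold, but all 6 on the first type read less in knockout, with log2 ratios of -0.91 to -0.39, a median of -0.55 and a summed signal of 80995 in knockout and 116078 in wildtype. Both on the second type, Dsg1a and Dsc1, did so too, at -0.59 and -0.53. None of the 8 macrophage markers, cells that also make MMPs, passed 2-fold (median 0.054, summed signal 4847 in knockout and 5405 in wildtype). Of 8 neutrophil markers 1 was lower, Camp, and the summed signal was 413 in knockout and 648 in wildtype. Of 4 erythroid markers 3 were lower, Hba-a1 by 4.01-fold, Hbb-b2 by 3.78-fold and Alas2 by at least 3.23-fold. The summed signal of the 4 was 5477 in knockout and 21694 in wildtype. Of 5 smooth muscle and pericyte markers 1 was lower, Tagln. None of the measured mast cell (7), endothelial (5), skeletal muscle (7), adipocyte (4), bone and cartilage (5) or melanocyte (4) markers passed 2-fold on the first type. On the second type the melanocyte enzyme gene Dct, the 1 melanocyte marker measured there, read 3901 in knockout and 1769 in wildtype, 2.21-fold higher. The part of these shifts in the signals of Timp1, Timp2, Timp3, Mmp14 or Adam10 was not tested.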

How the data were processed

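The values are the authors' deposited array intensity signals, 1 per probe set on a linear scale, which MAS5 computed, per the submitters' processing notes. The sources used here give neither its version nor its scaling target or detection calls. MAS5 subtracts local background and combines matched and mismatched probes, which makes low signals unsteady. Deposited 2% trimmed means were 500.2 to 500.4 on all 4 arrays, and no column was left without a sample. Depth does not apply to arrays, and their number limits the precision.

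Within a type, both arrays were brought to the same 2% trimmed mean and floored at the mean of their 40th percentiles, and log2 ratios were computed as knockout over wildtype. Then 66 control probe sets per type were dropped. On the 2 types, 10833 and 10581 probe sets name 1 gene, 396 and 178 several and 1193 and 1652 none, and symbols were updated through RefSeq (GRCm38.p6) for 10817 and 10550. A gene takes its probe set of highest mean signal. With 1 array per genotype and type a rule of size, at least 2-fold, stands in for a test. Genes on both types and above the floor in at least 1 array of each were fitted with limma 3.58.1 (R 4.3.3; lmFit and eBayes, Benjamini-Hochberg adjustment); other steps used Python 3.11.15 with pandas 2.3.3, numpy 2.4.6 and statsmodels 0.14.6. These steps were checked on simulated data.

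The genes, lists, promoter motifs and naming rule were chosen with earlier results of these data known. The rule takes every probe set of the 10 genes, loricrin, up to 6 genes past 2-fold of each related list and type (with none, the 2 of highest mean signal), and of each cell type list up to 2 of highest mean signal and those past 2-fold. The text does not name all the cell type genes of highest mean signal. Other genes named for their values, such as second probe sets, the 5 higher matrix genes and the keratins below the floor, were chosen after those values were seen. The alternatives were scaling, floor, pseudocount, size of a call, suffix letters of probe sets, value per gene and block.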

Additional observations from a re-analysis of the deposited data

How the results depend on the processing

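Over 13 alternatives, no value changed sign while it was called. Of the 10 genes, 0 passed 2-fold as reported. With the floor at the 20th percentile 3 passed (Mmp2 higher, Mmp11 and Timp2 lower, with 9.13% of all probe sets called). With no floor and a pseudocount of 1, 6 passed (Mmp2 and Mmp9 higher, Mmp3, Mmp11, Mmp13 and Timp2 lower, 16.9% called). At 1.5-fold 1 gene passed by its brightest probe set, Timp2. Counted by probe set, 2 of the 16 were lower at 1.5-fold, Timp2 93507_at and Adam10 100751_at, with 8.80% of all probe sets called. Under the other alternatives 0 genes passed. Each gene gained with the lower floor or the pseudocount had at least 1 signal below the floor used here. Of the related lists' genes on the first type, 17 passed as reported, 9 with the floor at the 60th percentile, 33 with a pseudocount of 1, 11 with the floor's value as pseudocount, 26 at 1.5-fold and 7 at 3-fold. On the second type 4 passed as reported, 2 with the floor at the 60th percentile, 9 with a pseudocount of 1 and 2 at 3-fold. With spike-in scaling, limma called 6 of 10 list genes and 552 of all 1263 genes tested. As reported, the counts were 0 of 11 and 0 of 1250. Loess called 10 of 1243 genes and the floor at the 60th percentile 7 of 637, none of them in the lists. Under spike-in scaling 96.6% and 95.9% of the probe sets called on the 2 types were higher in knockout, against 41.7% and 44.7% as reported. Leaving out either array pair leaves 1 type, and the median over list genes on both types was then 0.07 (second type) or -0.08 (first type), against 0.05 over both. No other alternative gave a limma call in the lists, where the lowest adjusted p was 0.104 to 1.

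No paired analysis was possible because the labels number no replicates across genotypes and a type has only 1 array of each genotype; the array type was the block. The alternatives for the 10 genes on the second type and in limma could not be run, since no probe set of theirs is listed there. Signals near or below the floor, 9 of the 16 probe sets, allow no statement on Mmp3, Mmp9, Mmp11 or Mmp13.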
